A study of Mus musculus with 11 samples.

Results

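Tspan11, Phldb2, Adcy7 and Ppih are 4 of the 16755 genes in the deposited expression table of E14.5 mouse maxillary molar tooth germs. They were taken by symbol, as genes outside the usual lists of Hedgehog (Hh) targets that an earlier analysis of the same values had found lower in 1 or both mutants. Their differences from wild type chose them, so those differences are given below as a description, without a test. The table holds 4 wild-type (Cilk1+/+) libraries, 4 Cilk1-/- libraries and 3 Cilk1-/-;PCS1-MRCS1△/△ libraries, the last being referred to here as the compound mutant. Cilk1 encodes a kinase of the primary cilium, the organelle through which vertebrate cells read Hh ligands. The Cilk1-/- mice lack exon 6 of Cilk1, which EIIa-Cre had deleted in the germ line, so the loss is present in every cell type. The compound mutant carries the same deletion and also lacks PCS1 and MRCS1, enhancers of Shh active in the oral epithelium. Embryos with the enhancer deletion alone were not among the libraries, so the effect of that deletion could only be seen on the Cilk1-/- background. All mice were on the C57BL/6 background, both sexes were used, and each library was made with n = 6, without a statement of whether 6 counts germs or embryos.

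The 4 genes belong to unrelated families. Tspan11 encodes a tetraspanin, a class of small membrane proteins that gather integrins, proteases and receptors into patches of the cell surface. Phldb2 encodes LL5beta, which binds phosphoinositides under the plasma membrane and holds microtubule ends there through CLASP proteins, next to the adhesions made by talin and the KANK proteins. Adcy7 encodes a membrane adenylyl cyclase. It makes cAMP, which activates protein kinase A, and this kinase is best known in Hh signaling for driving Gli proteins toward their repressor form. Ppih encodes cyclophilin H, a prolyl isomerase bound to the U4/U6 particle of the spliceosome through Prpf4 and Prpf3. At this stage the molar germ is an epithelial cap around condensed mesenchyme, and the enamel knot of the epithelium secretes Shh.

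In the GENCODE vM21 annotation (GRCm38), Tspan11 lies on the plus strand of chr6:127887589-127953977, Phldb2 on the minus strand of chr16:45746243-45953598, Adcy7 on the plus strand of chr8:88272403-88329962, and Ppih on the minus strand of chr4:119300010-119320546. All are protein-coding. The sequences just before the RefSeq start sites are shown because the genes were lower together, and because the Gli factors that carry Hh signals bind a known DNA motif. Bases are from RefSeq on GRCm38.p6, 5′ to 3′ on the strand of the gene, and stop before the first annotated exon base. Where a run of 9 bases came within 2 letters of the Gli motif GACCACCCA on either strand, the closest run is in capitals.
Tspan11, chr6:127887372-127887508, plus strand: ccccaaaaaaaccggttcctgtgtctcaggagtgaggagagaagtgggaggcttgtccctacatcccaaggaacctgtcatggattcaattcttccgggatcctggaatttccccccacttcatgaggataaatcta
Phldb2, chr16:45844379-45844628, minus strand: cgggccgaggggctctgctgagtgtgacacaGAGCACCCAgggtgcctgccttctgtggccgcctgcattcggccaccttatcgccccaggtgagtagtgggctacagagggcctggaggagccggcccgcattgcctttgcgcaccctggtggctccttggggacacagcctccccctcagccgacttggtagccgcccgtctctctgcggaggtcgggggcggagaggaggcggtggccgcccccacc
Adcy7, chr8:88282742-88282991, plus strand: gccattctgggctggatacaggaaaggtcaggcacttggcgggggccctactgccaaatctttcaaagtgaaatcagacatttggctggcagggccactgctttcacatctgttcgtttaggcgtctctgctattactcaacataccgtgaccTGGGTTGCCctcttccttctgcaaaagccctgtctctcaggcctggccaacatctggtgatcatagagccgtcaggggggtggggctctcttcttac
Ppih, chr4:119320547-119320773, minus strand: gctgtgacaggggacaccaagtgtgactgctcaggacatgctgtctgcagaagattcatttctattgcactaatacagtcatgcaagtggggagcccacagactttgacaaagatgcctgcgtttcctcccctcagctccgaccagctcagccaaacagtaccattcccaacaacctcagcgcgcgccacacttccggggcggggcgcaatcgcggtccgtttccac
The RefSeq starts used for Phldb2 and for Adcy7 lie inside the GENCODE genes. The sequence shown for Adcy7 is that of 1 of its 3 RefSeq start sites. Exact matches were searched over each whole RefSeq window, which also takes in bases after the start. None of the 6 start sites of the 4 genes had an exact match, on either strand, to GACCACCCA, to the Tcf/Lef motif CTTTGAT or to the cAMP response element TGACGTCA. Of all 32851 windows, 0.253%, 3.73% and 1.79% hold these motifs. The closest run before Phldb2, GAGCACCCA, matched the Gli motif at 8 of 9 letters, as did a run in 5.79% of all windows. The closest run before Adcy7 matched at 7 of 9 letters, as in 51.8% of windows. For Tspan11 and Ppih the best match was 6 of 9 letters, which 98.6% of windows reach or exceed. These shares are over 250 bases before each start, whereas only 137 bases were searched for Tspan11 and 227 for Ppih.

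Values are on the log2 scale of the deposited table, probably log2(FPKM + 1), which is per gene length, so levels of different genes can be set side by side. Percentages of wild type were computed after turning the values back from that scale. Without read counts, the depth of each library is unknown and the precision rests on the spread between libraries. Turned back, the columns sum to between 339970 and 364615. Principal component 1, with 41.6% of the total variance, set compound mutant replicate 1 apart from the other 10 libraries, so several of the results that rest on it are also given without it. The labels describe the libraries in 2 sets. Wild-type and Cilk1-/- replicates 1 to 3 form the first, and replicate 4 of each together with the compound mutant form the second. Over all genes, wild-type and Cilk1-/- libraries of the same number deviated from their group means in opposite directions, with correlations of −0.74, −0.89, −0.85 and −0.79 for numbers 1 to 4. The step behind this is not stated, and p-values here treat the libraries as independent, so they may be too small. As a check of the genotypes, Cilk1 itself, listed under its older symbol Ick, was read at 3.47, 3.58, 3.45 and 3.6 in wild type, at 2.86, 2.72, 2.84 and 2.76 in Cilk1-/-, and at 2.67, 2.65 and 2.60 in the compound mutant. Every mutant library lay below every wild-type library. The RNA is from whole germs, where fewer cells of a type and less RNA per cell cannot be told apart.

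**Figure D1:**
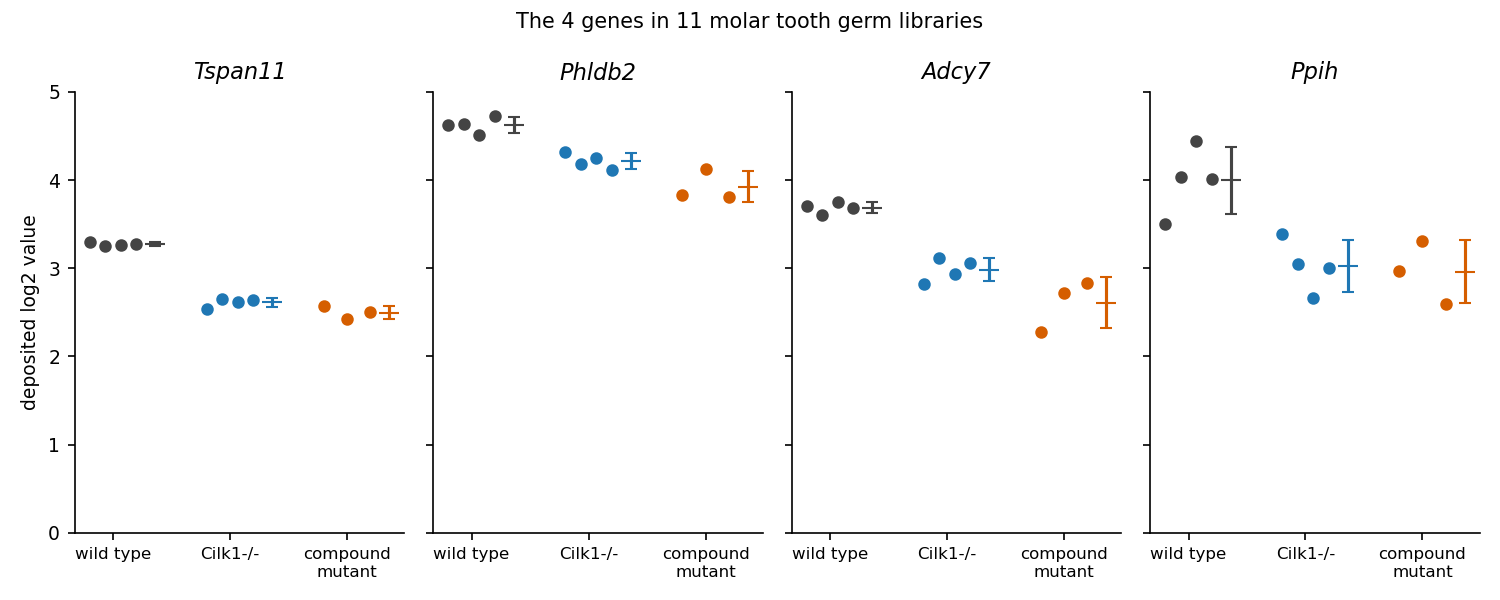
Deposited log2 values (vertical axis) of Tspan11, Phldb2, Adcy7 and Ppih, 1 panel per gene, in wild-type, Cilk1-/- and compound mutant libraries. Points are libraries in replicate order, and the bar beside them is the mean with its SD (n = 4, 4 and 3); in every panel all mutant libraries lie below all wild-type libraries, and Ppih has the widest spread.

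Tspan11 was the steadiest of the 4 genes within each genotype. It was read at 3.30, 3.25, 3.27 and 3.28 in wild-type replicates 1 to 4, at 2.54, 2.65, 2.62 and 2.65 in Cilk1-/-, and at 2.57, 2.42 and 2.5 in the compound mutant. The mutant libraries overlapped each other and none came near the wild-type range. The means were 3.27 ± 0.021 (SD, n = 4), 2.61 ± 0.052 (SD, n = 4) and 2.5 ± 0.073 (SD, n = 3). Tspan11 thus stood at 59.1% of wild type in Cilk1-/- and 53.6% in the compound mutant, with log2 differences of −0.66 (standard error 0.045) and −0.78 (0.049). On the deposited log2 scale the Cilk1-/- difference is just past the 1.5-fold limit of 0.58 used for calls. The percentages are on the turned-back scale, where the fold is larger. It was −0.67 in the first label set and −0.63 between the single libraries of the second. Without compound mutant replicate 1, the compound mutant difference was −0.81.

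Phldb2 fell short of that limit in Cilk1-/- and passed it in the compound mutant. Wild-type libraries were read at 4.62, 4.64, 4.51 and 4.72, Cilk1-/- libraries at 4.32, 4.18, 4.25 and 4.12, and compound mutant libraries at 3.83, 4.13 and 3.81. Compound mutant replicate 2 lay inside the Cilk1-/- range, and the other two lay below it. The means were 4.62 ± 0.086 (SD, n = 4), 4.22 ± 0.088 (SD, n = 4) and 3.92 ± 0.18 (SD, n = 3), or 74.4% and 60.1% of wild type. The log2 differences from wild type were −0.41 (standard error 0.076) and −0.70 (0.082). The Cilk1-/- difference was −0.34 in the first label set and −0.61 in the second, where it rests on 1 library each. The compound mutant difference was −0.65 without replicate 1.

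Adcy7 was lower in Cilk1-/- and had its lowest values in the compound mutant. It was read at 3.70, 3.60, 3.75 and 3.69 in wild type, at 2.83, 3.12, 2.93 and 3.06 in Cilk1-/-, and at 2.28, 2.72 and 2.83 in the compound mutant. Compound mutant replicate 3 lay just inside the Cilk1-/- range, and replicate 1 was the lowest library by a wide margin. The means were 3.69 ± 0.063 (SD, n = 4), 2.98 ± 0.13 (SD, n = 4) and 2.61 ± 0.29 (SD, n = 3), which is 58.3% and 43.6% of wild type. The log2 differences were −0.70 (standard error 0.11) and −1.08 (0.12), and the second was −0.91 without compound mutant replicate 1. Within the label sets the Cilk1-/- difference was −0.73 and −0.63.

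Ppih had the lowest mean level relative to wild type in Cilk1-/- and the widest spread. Wild-type libraries were read at 3.51, 4.04, 4.44 and 4.01, Cilk1-/- libraries at 3.39, 3.05, 2.66 and 3.01, and compound mutant libraries at 2.97, 3.31 and 2.60. Wild-type replicate 1 and Cilk1-/- replicate 1 differed by only −0.12, whereas those numbered 3 differed by −1.78. The means were 4.0 ± 0.38 (SD, n = 4), 3.03 ± 0.30 (SD, n = 4) and 2.96 ± 0.36 (SD, n = 3), or 47.2% and 45.1% of wild type. The log2 differences were −0.97 (standard error 0.22) and −1.04 (0.23), and the Cilk1-/- difference was −0.96 and −1.01 in the label sets. Without compound mutant replicate 1, the compound mutant difference was −1.05. Ppih reads may not all be assignable to 1 gene, since 8 other annotated genes or pseudogenes match its transcripts at 90% identity or more over at least 200 bases. Only Gm10069 of these is in the table, with 98.8% identity over 566 bases, and its means were 1.03, 1.16 and 1.09 in wild type, Cilk1-/- and the compound mutant. Its differences from wild type were 0.13 (adjusted p = 0.507, limma) and 0.06 (adjusted p = 0.764). Whether the counting divided reads that match several copies or left them out is not stated, so the values of Ppih are uncertain to that extent. No other member had such a copy. Tspan11 overlaps the antisense gene Gm15870, and Phldb2 overlaps Gm15640 and Gm15638 on the opposite strand. None of these is in the table, and whether the counting used the strand is not stated.

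All 4 genes thus had every Cilk1-/- and every compound mutant library below every wild-type library, as did 10.7% of all genes in Cilk1-/- and 9.05% in the compound mutant. The genes were chosen on these comparisons, so nothing is read from that count. A call in what follows needs an adjusted p under 0.05 (limma, Benjamini-Hochberg over all 16755 genes) and a fold change of at least 1.5. The fold is taken on the deposited scale, as a log2 difference of at least 0.58. If that scale is log2(FPKM + 1), this understates the fold of genes with low values. By this rule 0.370% of genes were called in Cilk1-/- against wild type, 1.25% in the compound mutant against wild type and 0.543% between the mutants.

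Whether the added enhancer deletion lowered the 4 genes further was asked by comparing the compound mutant with Cilk1-/-. The genes were chosen as lower in 1 or both mutants from the same libraries, which favours a downward step for a gene such as Phldb2 that passes the fold limit only in the compound mutant. The p-values of the steps, and of the tests against Hh genes that follow, are therefore not independent of the choice. All 4 means were lower in the compound mutant, and none of the steps passed the threshold. The step was −0.12 for Tspan11 (standard error 0.049, unadjusted p = 0.0368, adjusted p = 0.188, limma). It was −0.29 for Phldb2 (standard error 0.082, unadjusted p = 0.00452, adjusted p = 0.0732) and −0.37 for Adcy7 (standard error 0.12, unadjusted p = 0.00966, adjusted p = 0.103). For Ppih it was −0.07 (standard error 0.23, adjusted p = 0.898), less than the spread within either mutant. Single libraries mattered here. Without compound mutant replicate 2 the Phldb2 step was −0.40 (adjusted p = 0.0106), and without replicate 1 it was −0.25 (adjusted p = 0.165). Without replicate 3 the Adcy7 step was −0.48 (adjusted p = 0.0305), and without replicate 1 it was −0.21 (adjusted p = 0.191). The Ppih step turned to 0.12 without compound mutant replicate 3 and to 0.054 without Cilk1-/- replicate 1. Within the second label set, against its single Cilk1-/- library, the steps were −0.15, −0.19, −0.45 and −0.05 for Tspan11, Phldb2, Adcy7 and Ppih.

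The Hh targets Ptch1, Gli1 and Hhip give a scale for these steps. Ptch1, the Hh receptor that is induced by its own pathway, differed from wild type by −0.89 in Cilk1-/- (adjusted p = 0.0374, limma), and its compound mutant difference was −1.66 (adjusted p = 0.00284). Gli1, the transcription factor used as a readout of Hh activity, differed by −0.90 (adjusted p = 0.0343) and −1.43 (adjusted p = 0.00500). Hhip, a membrane protein that binds and sequesters Hh ligands, differed by −0.45 (adjusted p = 0.0450, under the fold limit on the deposited scale) and −0.94 (adjusted p = 0.00245). Turned back from that scale, Hhip stood at 66.4% of wild type in Cilk1-/- and at 40.4% in the compound mutant. Leaving out 1 library in turn ended the Cilk1-/- calls of Ptch1 and of Gli1 in 8 of 11 fits each. With the label set as a term in the fit, no difference of the 3 genes from wild type passed, and the compound mutant values had adjusted p of 0.0545 for Ptch1, 0.0850 for Gli1 and 0.0533 for Hhip. All compound mutant libraries are in the second set. The mean of the 3 genes was 4.17, 4.30, 4.27 and 4.20 in Cilk1-/- and 3.19, 3.77 and 3.96 in the compound mutant. All compound mutant libraries lay below all Cilk1-/- libraries, and replicate 1 was the lowest. That mean minus each member was then compared between the mutants with exact two-sided permutation tests over the 35 splits of 7 libraries. The Hh mean stepped down further than Tspan11 by 0.48 (exact p = 0.0286, the smallest these splits allow, adjusted over the 4 tests p = 0.114). The same difference was 0.30 for Phldb2 (exact p and adjusted p = 0.257), 0.22 for Adcy7 (exact p = 0.0571, adjusted p = 0.114) and 0.53 for Ppih (exact p = 0.20, adjusted p = 0.257). None passed the threshold after adjustment. Tspan11 was at the smallest possible p and still had 0.114, so 1 member alone could not have passed. The tests therefore cannot show that the members step as the Hh genes do. Without compound mutant replicate 1 these 4 differences shrank to 0.22, 0.12, 0.16 and 0.30. Adcy7 thus had the step closest to that of the Hh genes with all libraries, and Phldb2 without replicate 1.

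**Figure D2:**
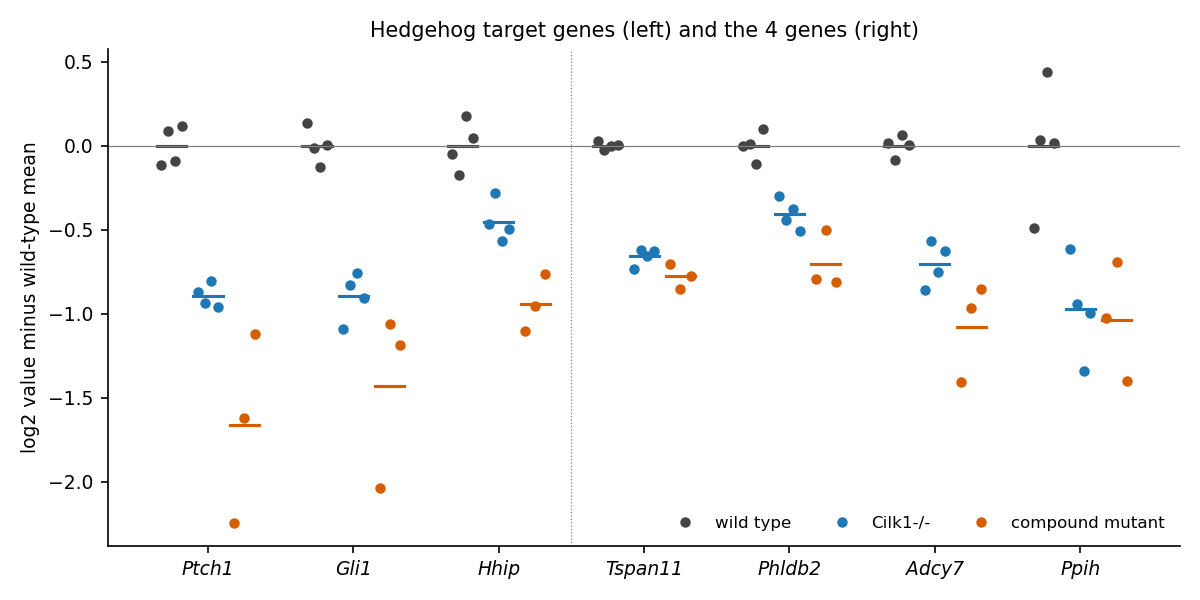
Log2 value of each library minus the wild-type mean of the same gene (vertical axis) for Ptch1, Gli1 and Hhip and for Tspan11, Phldb2, Adcy7 and Ppih (horizontal axis). Points are libraries and short lines group means; between Cilk1-/- and the compound mutant the means move by −0.77, −0.53 and −0.49 for the first 3 genes and by −0.12, −0.29, −0.37 and −0.07 for the 4 genes.

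The relatives of the 4 genes were read in the same fit, with the members left out of each count. Across the whole table, 1.71% of genes were called in at least 1 of the 3 comparisons, against which the counts below can be read. The 2 mutants share the wild-type libraries, so a low or high wild-type value moves both differences.

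Of the 28 other tetraspanins in the table, limma called none in any comparison, and 2, Tspan1 and Upk1b, passed an unadjusted p under 0.05 with the fold limit, which 4.22% of all genes did in at least 1 comparison, both higher in the compound mutant. The median tetraspanin differed from wild type by −0.01 in Cilk1-/- libraries and by 0.09 in compound mutant ones, where all genes had medians of 0.0032 and −0.0016. The lowest single differences among these 28 were −0.27 and −0.18. In wild type Cd63, Cd81 and Tspan3 had the highest levels, at 7.54, 7.09 and 6.83. Tspan11 was in place 16 of 29. Its range of 3.25 to 3.30 was clear of Tspan18 above it (3.62 to 4.0) and of Tspan15 below it (2.42 to 2.67). It kept place 16 in Cilk1-/- and was in place 18 in the compound mutant.

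The 11 tetraspanin partners covered the integrin chains, Igsf8 and Ptgfrn, the protease Adam10, and the receptor Fzd4 with its ligand Ndp, and 1 of them was called. Ndp, or norrin, a secreted ligand that activates Fzd4 and beta-catenin and uses Tspan12 as its co-receptor, was read at 2.07, 2.39, 2.40 and 2.21 in wild type. It was read at 1.48, 1.29, 1.29 and 1.53 in Cilk1-/- and at 1.26, 0.99 and 1.20 in the compound mutant. The mutant libraries lay below all wild-type libraries. On the log2 scale Ndp fell by 0.87 in Cilk1-/- (adjusted p = 0.00460, limma), and its compound mutant difference was −1.12 (adjusted p = 0.00161). Both calls stood in all 11 fits that left out a library. With the replicate number as a block the compound mutant call stood (adjusted p = 0.0341) and the Cilk1-/- call did not (adjusted p = 0.0846). Fzd4 had differences of 0.23 (adjusted p = 0.198) and 0.13 (adjusted p = 0.414), and Tspan12 of 0.02 (adjusted p = 0.945) and 0.39 (adjusted p = 0.0991).

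Of the 18 other genes of the LL5 cortical complex, limma called none, and none passed the unadjusted threshold either. Their median differences were −0.0004 and −0.02. Tln2, the talin that links integrins to actin alongside Tln1, came closest. It was read at 3.26, 3.43, 3.41 and 3.39 in wild type, at 3.04, 2.91, 2.90 and 2.98 in Cilk1-/-, and at 2.80, 2.70 and 3.11 in the compound mutant. The mutant libraries lay below the wild-type libraries. Tln2 differed by −0.42 (adjusted p = 0.0321) and −0.50 (adjusted p = 0.0141), under the fold limit in both. Phldb1, the nearest relative of Phldb2, differed by −0.04 (adjusted p = 0.765) and −0.02 (adjusted p = 0.841). Flna, Tln1 and Dag1 were highest in wild type, at 7.45, 5.23 and 5.04, and Phldb2 was in place 6 of 19. Its wild-type range, 4.51 to 4.72, overlapped those of Kank2 above it (4.67 to 4.83) and Phldb1 below it (4.46 to 4.59), so these 3 neighbours did not differ beyond their spread. Phldb2 was in place 9 in Cilk1-/- and 11 in the compound mutant.

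Adcy7 moved down the order of the adenylyl cyclases. In wild type Adcy6 was highest at 4.73, and Adcy7 followed at 3.69 before Adcy2 at 3.55. The wild-type range of Adcy7, 3.60 to 3.75, was below that of Adcy6 (4.66 to 4.91) and overlapped that of Adcy2 (3.39 to 3.65). Among the 10 cyclases Adcy7 was in place 5 in Cilk1-/- and in place 6 in the compound mutant, behind Adcy6, Adcy3, Adcy2 and Adcy4 in both. Of the 9 other cyclases 1 was called. Adcy8, a cyclase stimulated by calcium and calmodulin, was read at 2.24, 2.08, 1.71 and 2.13 in wild type, at 1.43, 1.55, 1.83 and 1.36 in Cilk1-/-, and at 0.60, 1.78 and 0.98 in the compound mutant. The groups overlapped, since compound mutant replicate 2 lay within the wild-type range. Its compound mutant difference was −0.92 (adjusted p = 0.0489, limma). Leaving out 1 library in turn ended that call in 10 of 11 fits, with adjusted p from 0.0610 to 0.126, and the call stood only without compound mutant replicate 2 (−1.25, adjusted p = 0.00272). It was also lost with the replicate block (adjusted p = 0.162) and with the label set as a term (adjusted p = 0.290). The median differences of the 9 cyclases were 0.03 and 0.0050.

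The 32 other genes of the cAMP pathway covered G protein alpha subunits, Gpr161, protein kinase A subunits, phosphodiesterases, Epac proteins, Creb family members and anchoring proteins. Limma called none of them, and 1 passed the unadjusted threshold. This was Akap12, also called gravin, a scaffold that brings protein kinase A to the membrane. It was read at 4.43, 4.87, 4.48 and 4.94 in wild type, at 4.27, 3.89, 4.14 and 3.69 in Cilk1-/-, and at 4.30, 3.80 and 3.06 in the compound mutant. Its mutant and wild-type libraries did not overlap, with differences of −0.68 (adjusted p = 0.143) and −0.96 (adjusted p = 0.0524). Gpr161, a ciliary receptor that raises cAMP and holds Hh signaling down, differed by −0.13 (adjusted p = 0.348) and −0.32 (adjusted p = 0.0405, under the fold limit). The medians of the list were −0.01 and −0.08.

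**Figure D3:**
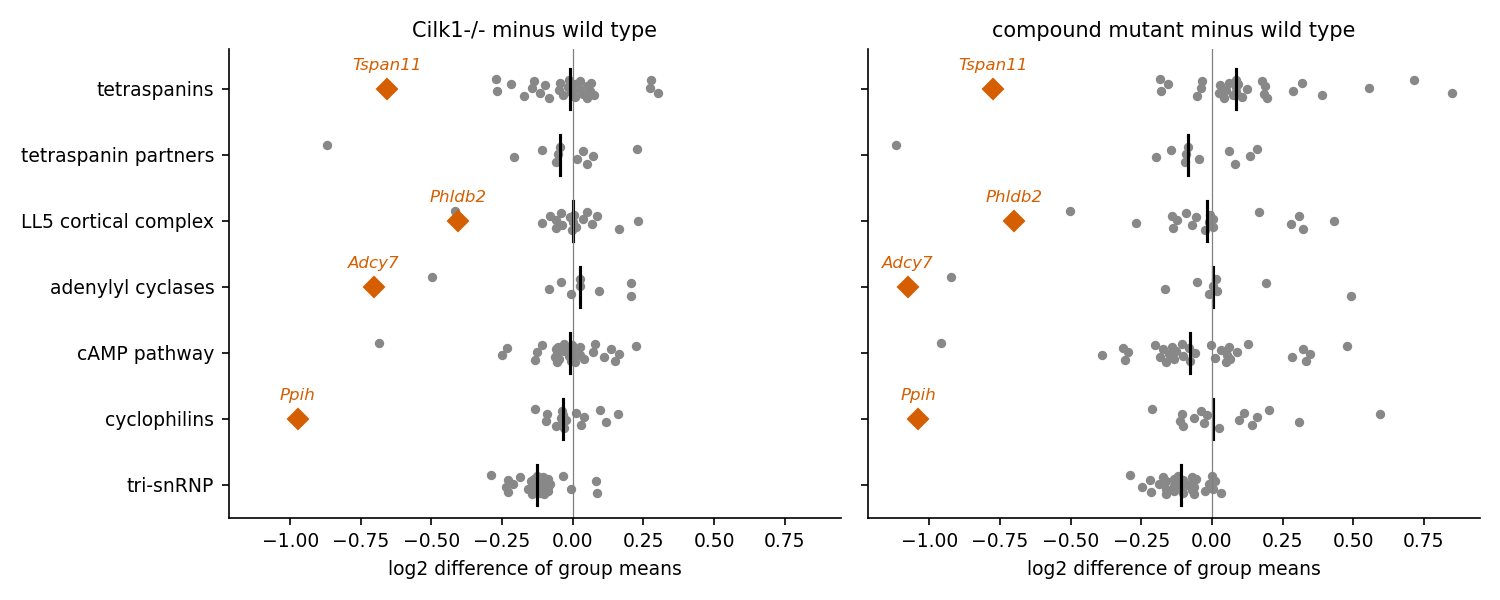
Log2 difference of group means from wild type (horizontal axis) in Cilk1-/- (left) and the compound mutant (right) for the genes of 7 lists (vertical axis). Grey points are genes, black lines medians and orange diamonds the members; the list medians lie between −0.13 and 0.09, and the low position of the members follows from how they were chosen.

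The other cyclophilins differed little from wild type. Limma called none of the 16, and 1, Ppil6, passed the unadjusted threshold and was higher in the compound mutant. Their median differences were −0.03 and 0.0038, and the lowest were −0.13 and −0.21. Ppia, Ppib and Ppic, the abundant cytosolic and secretory cyclophilins, led the wild-type order at 9.94, 7.68 and 6.50. Ppih was in place 13 of 17, and its wild-type range of 3.51 to 4.44 took in those of Ppil4 above it (4.06 to 4.15) and Ranbp2 below it (3.71 to 3.87). In both mutants it was in place 16.

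None of the 30 other genes of the U4/U6.U5 tri-snRNP in the table was called by limma or passed the unadjusted threshold. Both include the fold limit, so smaller differences are not counted. Sart3, for example, reached at most 4.84 in Cilk1-/- and at least 4.93 in wild type. Prpf3 overlapped, at 4.03 to 4.18 and 3.97 to 4.12. Their differences were small and mostly to the same side. In Cilk1-/- 28 of the 30 were below 0, as were 48.8% of all genes, with a median of −0.13 and a lowest value of −0.29. In the compound mutant 26 of the 30 were below 0, as were 50.6% of all genes, with a median of −0.11. Between the mutants 9 of the 30 were below 0, against 49.0% of all genes. The direct partners of Ppih had small differences. Prpf4 differed from wild type by −0.13 (adjusted p = 0.152) and −0.06 (adjusted p = 0.429), and Prpf3 by 0.09 (adjusted p = 0.404) and 0.0053 (adjusted p = 0.967).

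The 3 nearest measured genes on either side of each member were read as well, which gave 24 neighbours, and 1 of them was called. Their distances ran from 1077 to 3745635 bases, so not all of them lie close to their member. Tagln3, an actin-binding protein of the transgelin family best known from neurons, ends 21635 bases from Phldb2 at chr16:45711230-45724608. It was read at 3.63, 3.78, 3.80 and 3.71 in wild type, at 3.12, 3.0, 2.91 and 3.01 in Cilk1-/-, and at 3.31, 3.15 and 2.77 in the compound mutant. All mutant libraries lay below all wild-type libraries. On the log2 scale Tagln3 fell by 0.72 in Cilk1-/- (adjusted p = 0.0132, limma), and its compound mutant difference was −0.66 (adjusted p = 0.0115). The Cilk1-/- call was lost without Cilk1-/- replicate 3 (adjusted p = 0.0556) or 4 (adjusted p = 0.0502), and the compound mutant difference fell under the fold limit without replicate 3 (−0.50, adjusted p = 0.00629). With the replicate block neither was called (adjusted p = 0.0846 and 0.0814), and with the label set as a term the Cilk1-/- call stood (adjusted p = 0.0363) and the compound mutant call did not (adjusted p = 0.148). The step between the mutants was 0.07 (adjusted p = 0.749), where that of Phldb2 was −0.29. The 10 neuron markers were summed because Tagln3 is known from neurons, and their level, turned back from the log2 scale, was higher in the mutants. It was 18.9 to 24.8 in wild type, 31.2 to 34.4 in Cilk1-/- and 36.0 to 206 in the compound mutant.

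The genes directly beside the members had other values. Abhd10, which lies between Tagln3 and Phldb2, differed by −0.18 (adjusted p = 0.0374, under the fold limit) and −0.05 (adjusted p = 0.429), and Plcxd2 on the other side by −0.04 (adjusted p = 0.727) and 0.04 (adjusted p = 0.633). Beside Tspan11, the tetraspanin Tspan9 begins 7419 bases away, and it differed by 0.08 (adjusted p = 0.519) and −0.04 (adjusted p = 0.762). Prmt8 on its other side differed by −0.16 (adjusted p = 0.858) and 0.86 (adjusted p = 0.191). Brd7, which begins 1077 bases from Adcy7, differed by −0.04 (adjusted p = 0.752) and −0.09 (adjusted p = 0.298), and Heatr3, the nearest measured gene on the other side at 100376 bases, by −0.02 (adjusted p = 0.852) and −0.19 (adjusted p = 0.0680). Beside Ppih, the RNA-binding protein gene Ybx1 differed by −0.25 (adjusted p = 0.193) and −0.26 (adjusted p = 0.163), and Ccdc30 by 0.04 (adjusted p = 0.836) and 0.16 (adjusted p = 0.257).

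**Figure D4:**
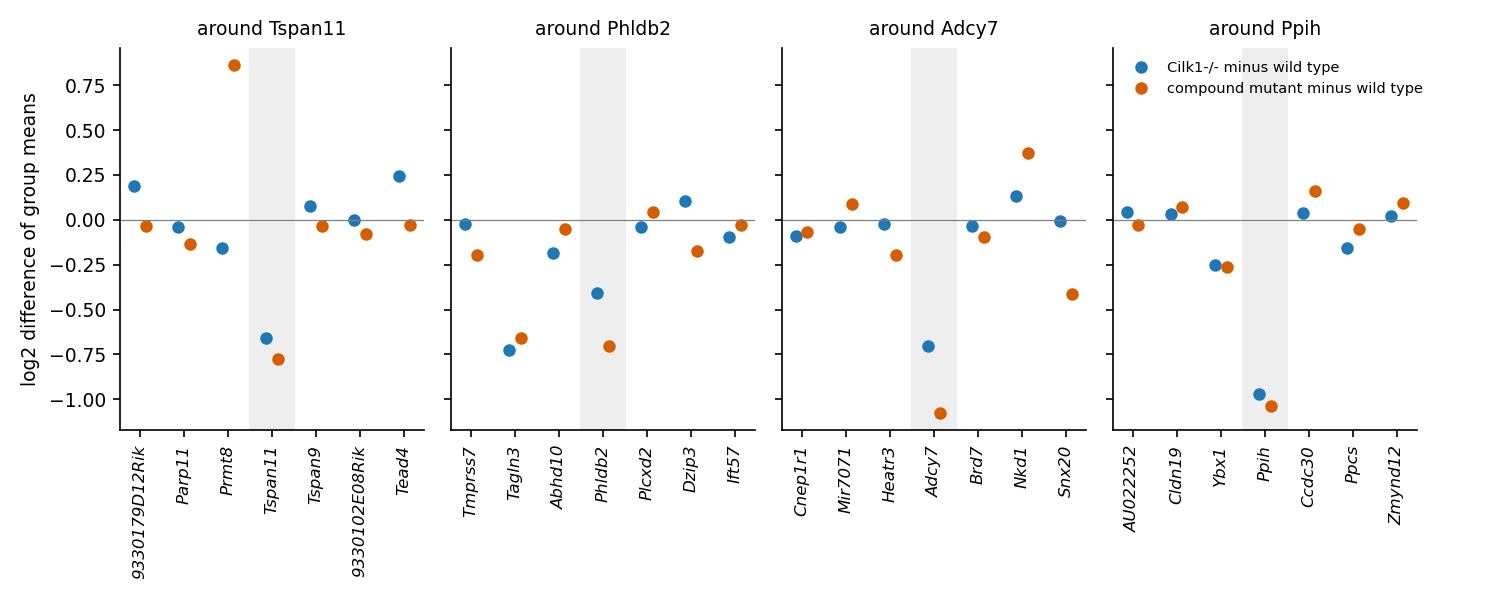
Log2 difference of group means from wild type (vertical axis) for each member, shaded, and for the 3 nearest measured genes on either side in order of distance (horizontal axis, not to scale). Blue points are Cilk1-/- and orange points the compound mutant; Tagln3, at −0.72 and −0.66, is the neighbour that lies as low as its member.

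To name the genes most like each member, every gene with a mean of at least 1 was centred on its own mean, and the root-mean-square difference from the member over the 11 libraries was taken, over 13027 genes. The measure describes likeness in these libraries, which all genes share, and carries no test. Nearest to Tspan11 was Cilk1 itself (Ick), at 0.093, where the median gene was at 0.36. Best1, a chloride channel, followed at 0.13, and Snora5c, a small nucleolar RNA gene, at 0.14. Nearest to Phldb2 were Maoa, monoamine oxidase A, at 0.086, Fbn1, the microfibril protein fibrillin-1, at 0.093, and Tpd52l1 at 0.11, where the median was 0.31. Maoa was high in the same compound mutant library as Phldb2, at 3.54, 3.87 and 3.37 in replicates 1 to 3.

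Near to Adcy7 in pattern were Hhip, at 0.15, and Sostdc1, a secreted inhibitor of Wnt and BMP signals, at 0.15, where the median was 0.47. Adcy7 is also known from blood cells, and the 13 measured macrophage markers were summed. Their level was 77.0 to 98.8 in wild type, 78.7 to 92.2 in Cilk1-/-, and 83.9, 62.0 and 83.1 in compound mutant replicates 1 to 3. These ranges overlap. Limma called none of the 13, and none passed the unadjusted p with the fold limit in either mutant. In the compound mutant 9 of the 13 were below wild type. The lowest were Lyz2 at 68.9% (log2 difference −0.48, adjusted p = 0.0469, under the fold limit), Ptprc at 69.7% (−0.23, adjusted p = 0.138) and Laptm5 at 77.9% (−0.32, adjusted p = 0.0693), each with all 3 libraries below the wild-type range. Their part in the values of Adcy7 was not tested.

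Nearest to Ppih were Hs3st6, a heparan sulfate sulfotransferase, at 0.20, the semaphorin Sema7a at 0.22 and Tmem91 at 0.23, where the median was 0.57. Like Ppih, Hs3st6 was lowest among wild-type libraries in replicate 1 (3.89) and highest in replicate 3 (4.55), and in Cilk1-/- the order was the opposite (3.37 in replicate 1 and 3.05 in replicate 3). This is not particular to the pair, since same-numbered libraries of the 2 genotypes deviated in opposite directions over all genes. Best1, named above for Tspan11, also had 1.51 and 1.88 in wild-type replicates 1 and 3 and 1.10 and 0.87 in those of Cilk1-/-. Among the members themselves, Phldb2 was at rank 14 and Adcy7 at rank 39 of the genes most like Tspan11, whereas Ppih was at rank 5319. Of the genes most like Phldb2, Adcy7 was at rank 1412 and Ppih at rank 10027. Of those most like Adcy7, Ppih was at rank 510. The members were chosen as lower in 1 or both mutants from these libraries, which favours likeness, so nothing is read from these ranks. The measure is not scaled, so the wide spread of Ppih adds to its differences.

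**Figure D5:**
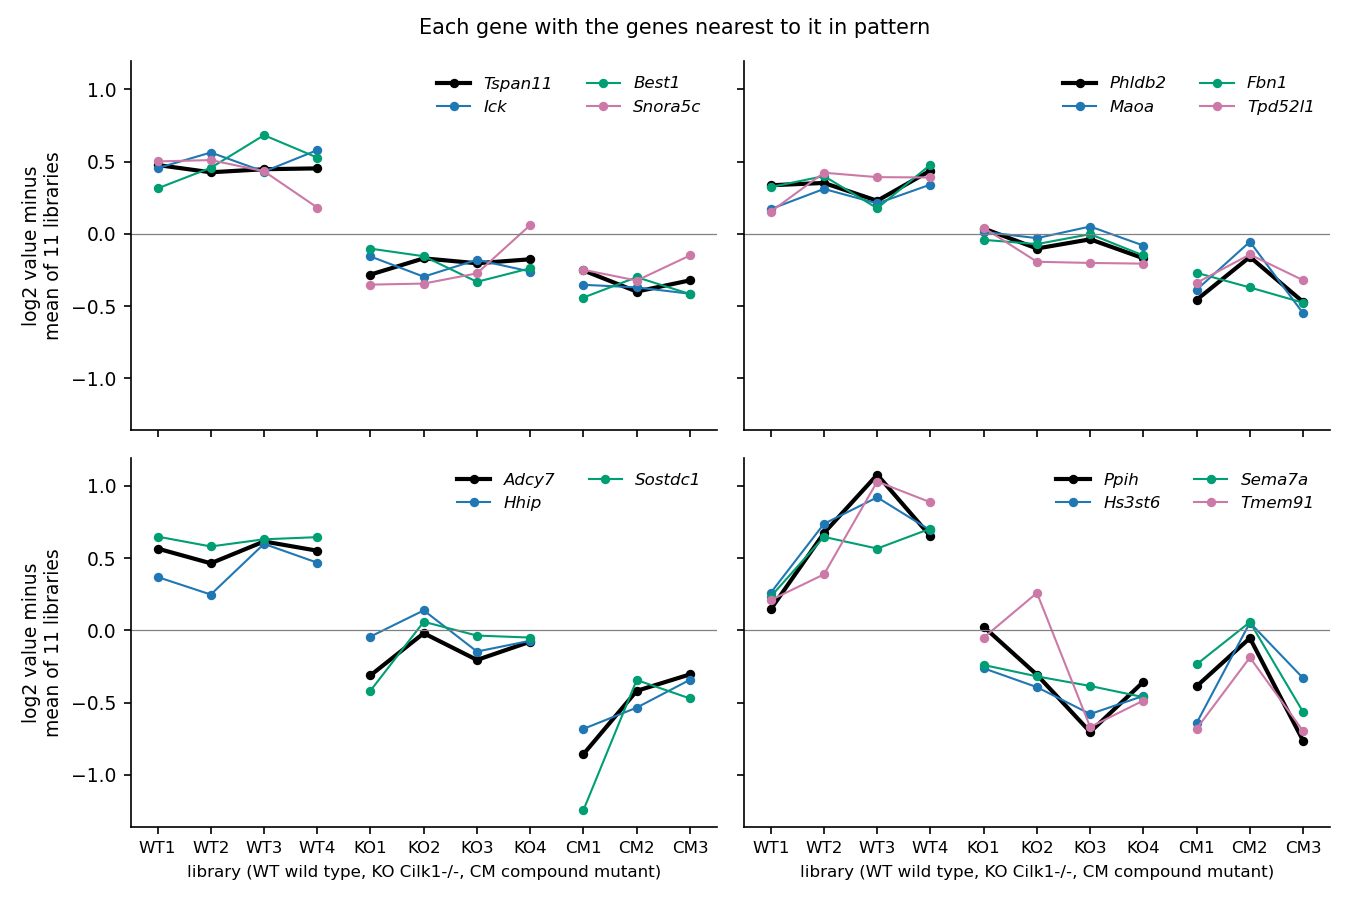
Log2 value minus the mean of the gene over 11 libraries (vertical axis) in each library (horizontal axis; WT wild type, KO Cilk1-/-, CM compound mutant) for each member, in black, and the genes named as nearest to it in pattern. Tspan11 and Ick are flat within genotypes, Adcy7, Hhip and Sostdc1 all have their lowest value in compound mutant replicate 1, and Ppih and Hs3st6 are both lowest in replicate 1 and highest in replicate 3 among wild-type libraries.

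The tissue markers set the frame for these values. Dental epithelium and mesenchyme were both present in every library. The 12 epithelial markers summed to 1275 to 1666 in wild type, 1407 to 1716 in Cilk1-/- and 757 to 1681 in the compound mutant, and the 12 mesenchymal markers to 1825 to 1949, 1849 to 2093 and 1470 to 2128. Compound mutant replicate 1, which had the lowest Adcy7, was lowest in both sums and highest in the neuron sum. The 11 measured skeletal muscle markers summed to 12.1 to 37.7 in wild type, 24.9 to 68.4 in Cilk1-/- and 9.46 to 10.9 in the compound mutant. The 10 measured erythroid markers summed to 2892 to 3785, 2966 to 4183 and 1060 to 3814. Endothelial and glial sums overlapped between wild type and the compound mutant, at 134 to 161 and 140 to 154 for 10 endothelial markers and at 19.9 to 22.7 and 21.9 to 48.8 for 8 glial markers, while in Cilk1-/- they were 129 to 149 and 23.8 to 27.0. The part of these shifts in the values of the 4 genes was not tested.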

How the data were processed

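The authors extracted RNA from E14.5 maxillary molar germs, sequenced poly-A selected libraries, mapped the reads to mm10 with HISAT2 2.0.5, counted them per gene with featureCounts 1.5.0-p3 and calculated FPKM from counts and gene lengths. The deposited values are log2 values per gene symbol, probably log2(FPKM + 1); 257 genes hold a value below 0, so a further adjustment on the log scale is possible and is not stated. Whole reads could not be recovered, so no count model was fitted.

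The groups come from the sample titles. The deposited log2 values of all 16755 genes were fitted with limma 3.58.1 in R 4.3.3 (lmFit, eBayes with trend and robust, 1 fit over 3 genotypes, no covariates), with the adjusted p and fold limits of the study's methods. On simulated data with 200 changed genes among 16755, the fit recovered 96.5% in Cilk1-/- and 95.5% in the compound mutant, with 2 and 1 false calls. These rates hold for the simulated settings only. They do not measure the power or the false calls of the fit in these libraries. The fold limit was applied to differences of the deposited log2 values. Differences of the 4 genes from wild type carry no test. Their pattern against Ptch1, Gli1 and Hhip was tested with exact permutations.

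The 4 genes and all lists were chosen with earlier results of these data known. Named are the 4 genes, called list genes, the 3 highest of each family and the genes beside the member in its order, called or nearest genome neighbours, the 3 genes nearest in pattern, Ptch1, Gli1, Hhip and Cilk1. Tspan1, Upk1b, Ppil6, Tspan12, Fzd4, Phldb1, Tln2, Kank1, Adcy5, Akap12, Gpr161, Pde8a, Rapgef4, Prpf3, Prpf4, Lyz2, Ptprc, Laptm5 and Gm10069 were added after their values were seen. Copies of the 4 genes were searched in GENCODE vM21 transcripts with blastn 2.17.0, and motifs by exact letters in RefSeq windows with Python 3.11.15. Whether replicates came from separate litters is not stated, so p-values measure the spread between these libraries. Protein sequences were not used here, and 1 gene near to a member in pattern is not reported here. Alternatives were other fits, scalings and thresholds, the replicate block and leaving out each library.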

Additional observations from a re-analysis of the deposited data

Results flagged for a closer look

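Among the named genes, 44 groups of 4 libraries were checked for a library far from the others, and 2 were flagged, where about 1 in 20 such groups is flagged by chance. Both belong to Tpd52l1, the third gene in likeness to Phldb2. Wild-type replicate 1 lay apart from the other 3 by 0.878 of the group's range, and Cilk1-/- replicate 1 by 0.947 of its range, the first below and the second above its group. No library of Tspan11, Phldb2, Adcy7 or Ppih was flagged in this way. The 3 compound mutant libraries are too few for the check.

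In the fit without covariates, Hhip passed limma's test between the mutants. It was lower in the compound mutant than in Cilk1-/- by a log2 difference of −0.49 (adjusted p = 0.0405), in 3 of 3 libraries. It did not reach the fold limit. Its adjusted p was 0.0134 to 0.0952 with 1 library left out, 0.215 with the replicate block and 0.30 with the label set as a term, so the difference depends on the fit. Hhip is also among the genes nearest in pattern to Adcy7, whose own step of −0.37 did not pass.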

How the results depend on the processing

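The 4 genes stayed below wild type in both mutants under every alternative run. With a pseudocount of 0.1, Tspan11 moved to −0.75 in Cilk1-/- and −0.89 in the compound mutant, and within the second label set the Cilk1-/- difference of Phldb2 was −0.61. Leaving out 1 library at a time gave −0.67 to −0.63 and −0.81 to −0.74 for Tspan11, −0.44 to −0.37 and −0.80 to −0.65 for Phldb2, −0.75 to −0.65 and −1.19 to −0.91 for Adcy7, and −1.14 to −0.83 and −1.21 to −0.86 for Ppih. The steps between the mutants ranged from −0.15 to −0.080 for Tspan11, from −0.40 to −0.24 for Phldb2 (adjusted p 0.0106 to 0.168), from −0.48 to −0.21 for Adcy7 (0.0305 to 0.205) and from −0.24 to 0.12 for Ppih (0.562 to 0.929). The Ppih step was reversed without Cilk1-/- replicate 1 (0.054) and without compound mutant replicate 3 (0.12).

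Counts of called list genes moved as follows. The cyclase count of 1 fell to 0 with only the groups compared, with the label set as a term, with the replicate block, without trend and robust, with median centring and with quantile normalization. The cAMP count of 0 rose to 1, Akap12, with only the groups compared, the pseudocount of 0.1, median centring and the unadjusted p. The neighbour count of 1 rose to 2 with the pseudocount of 0.1 and with the unadjusted p, which also gave 2 tetraspanins and 1 cyclophilin. Leaving out 1 library gave 0 to 1 cyclases, 0 to 2 cAMP genes, 0 to 1 tetraspanins, 0 to 1 LL5 genes and 0 to 1 cyclophilins. Without compound mutant replicate 2 the counts were 1 tetraspanin (Upk1b, higher), 1 LL5 gene (Kank1, higher) and 1 cyclophilin (Ppil6, higher). The 2 cAMP genes were then Pde8a, higher, and Akap12, lower. Without replicate 3 the counts were 1 LL5 gene (Tln2, lower) and 2 cAMP genes (Rapgef4 and Akap12, both lower). The 1 cyclase called without replicate 3 was Adcy5, higher, and not Adcy8. The causes were not tested.

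Same-numbered wild-type and Cilk1-/- libraries deviated in opposite directions (correlations −0.74 to −0.89), so they are not independent in these values. The fit without covariates left the number out, and its p-values may be too small. With the replicate number as a block, the Cilk1-/- calls of Ndp and Tagln3 were lost (adjusted p = 0.0846 for both, limma). With the replicate block the neighbour count was 0 and the cyclase count 0, and the adjusted p of the 4 steps was 0.476, 0.249, 0.25 and 0.935. Ptch1 and Gli1 were then called in the compound mutant (adjusted p = 0.0341 and 0.0473) and not in Cilk1-/- (adjusted p = 0.149 for both). With the label set as a term neither was called in either mutant (compound mutant adjusted p = 0.0545 and 0.0850), the Hhip difference was lost as well (0.0533), and Tagln3 was called in Cilk1-/- alone. Leaving out a library also ended each of their Cilk1-/- calls in 8 of 11 fits. Median centring and quantile normalization shifted the median difference of all genes by at most 0.019.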
